A study of Mus musculus with 12 samples.

Results

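The genes described here are 10 regulators of male germ cell differentiation and of germ cell RNA: Kit, Sohlh1, Sohlh2, Dmrt1, Dazl, Dnd1, Ddx25, Neurog3, Sox3 and Rhox13. They were chosen by name, with no threshold on their values, although earlier results of these data were known, and all 10 were found by Ensembl ID among the 35666 genes of the deposited gene table. All 10 also reached a mean of 10 normalized counts over the libraries, the minimum used for testing, which 26005 genes reached. RNA came from gonocytes, male germ cells that have not yet become spermatogonia, isolated from mice that carry the Mvh-Venus reporter (Mvh is an older name of the germ cell gene Ddx4). All libraries used here were from postnatal day 0 (P0), 3 from mice heterozygous for Morc1 (Morc1 (+/-), "het") and 3 from Morc1 knockout mice (Morc1 (-/-), "KO"). MORC1 is an ATPase known to silence transposons in male germ cells. The controls thus carried 1 disrupted Morc1 allele as well as the reporter, no wild-type mice were included in these groups, and the labels do not say whether a library came from 1 animal or a pool. The P3 samples named in the labels were not analysed here.

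Germ cells that leave the gonocyte state become spermatogonia, which either renew as stem cells or differentiate. KIT, the receptor tyrosine kinase for KIT ligand, marks the differentiating cells, and the basic helix-loop-helix factors SOHLH1 and SOHLH2 are known to be needed for this step and for normal Kit expression. NEUROG3 and SOX3 mark undifferentiated progenitor spermatogonia, DMRT1 is a DM-domain factor that restrains entry into meiosis, and RHOX13 is an X-linked homeobox protein of germ cells. DAZL, DND1 and DDX25 act on RNA: DAZL binds the 3′ ends of germ cell messages and promotes their translation, DND1 acts with NANOS proteins on bound messages, and DDX25 is an RNA helicase needed for later steps of spermatogenesis.

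SOHLH1 and SOHLH2 belong to a family that binds E-boxes, short elements with the letters CANNTG. Promoters of the SOHLH genes and of Kit are therefore shown, from 250 bases before to 30 bases after the start of the RefSeq gene (5′ to 3′ on the gene's strand, GRCm38.p6), with each CANNTG in capitals. The Sohlh1 window is chr2:25847219-25847498 (minus strand), the Sohlh2 window chr3:55181794-55182073 (plus strand) and the Kit window, the first of its RefSeq entries, chr5:75574737-75575016 (plus strand).
Sohlh1: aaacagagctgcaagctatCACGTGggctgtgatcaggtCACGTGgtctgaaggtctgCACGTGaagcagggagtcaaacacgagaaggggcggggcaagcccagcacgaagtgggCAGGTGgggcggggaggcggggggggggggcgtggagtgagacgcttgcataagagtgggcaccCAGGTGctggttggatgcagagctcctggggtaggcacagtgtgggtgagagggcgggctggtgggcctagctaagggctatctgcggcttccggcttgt
Sohlh2: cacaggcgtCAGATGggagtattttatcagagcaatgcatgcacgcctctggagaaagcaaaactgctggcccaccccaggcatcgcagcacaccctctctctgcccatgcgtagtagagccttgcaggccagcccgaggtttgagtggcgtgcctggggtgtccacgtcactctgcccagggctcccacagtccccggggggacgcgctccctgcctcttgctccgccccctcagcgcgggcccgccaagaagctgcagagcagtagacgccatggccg
Kit: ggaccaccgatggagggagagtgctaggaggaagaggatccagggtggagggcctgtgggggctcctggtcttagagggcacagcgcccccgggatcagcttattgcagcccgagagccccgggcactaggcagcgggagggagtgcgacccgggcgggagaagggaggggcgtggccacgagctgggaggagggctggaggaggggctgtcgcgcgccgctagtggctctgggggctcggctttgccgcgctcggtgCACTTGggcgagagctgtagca
The Sohlh1 window held 5 matches to CANNTG, of which 3 had the letters CACGTG and the other two CAGGTG. The Sohlh2 and Kit windows held 1 match each, CAGATG and CACTTG. A match to CANNTG, which reads the same on both strands, was present in 70.1% of 32851 RefSeq promoter windows of this length, and CACGTG, a special case of it, in 6.79%. These matches describe the letters and do not show binding. Promoters were found for 7 of the 10 genes, the entries not found being those of Dmrt1, Dnd1 and Sox3. CpG sites, at which DNA methylation occurs, numbered 40 in the Ddx25 window, 25 in that of Dazl and 5 in that of Rhox13, beside a median of 6 over all windows.

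The targeted gene was checked first, and the libraries were compared for depth and cell content. Here and throughout, values of a genotype are listed in the order of its replicates 1 to 3. Morc1 had 7248, 7485 and 4126 normalized counts (read counts divided by 1 size factor per library) in het and 1360.5, 1343 and 1794 in KO, a limma log2 fold change of -2.03 (SE 0.27, adjusted p 0.0110). The call was lost when het 1 (log2 fold change -1.90, limma adjusted p 0.0511), KO 1 (-1.97, adjusted p 0.101) or KO 3 (-2.17, adjusted p 0.0663) was left out. Recovered reads in genes ran from 28363683 to 32816861 per library. Of 7 germ cell markers, Ddx4 was abundant in all libraries, with 17605 to 31038 normalized counts. Mael, Piwil2, Tex101 and Tdrd1 had 6636 or more in every library. Dppa3 (268 to 497) and Nanos2 (16.4 to 47.5) were low. Transcripts of other testis cells were also present, and 2 libraries stood apart from the rest in them. The sum of 4 mast cell markers (Cpa3, Mcpt4, Fcer1a and Tpsb2) was 1961 in het replicate 3 and 1283 in KO replicate 2, against 52.5 to 213 in the other 4 libraries. Fcer1a alone did not follow this, with 1.91, 9.66 and 17.6 normalized counts in het and 14.8, 14.5 and 5.88 in KO. The sum of 5 Leydig cell markers was 24921 in het replicate 3 and 509.6 to 1079 elsewhere. Mcpt4, a mast cell protease, and Insl3, the Leydig cell hormone, were near 0 in het replicate 1 (1.91 and 0.954 normalized counts). The sum of 7 Sertoli cell markers ran from 17536 to 37259 in het and from 12581 to 18099 in KO. Of these markers Sox9, Amh and Clu were lower in every KO library than in every het library, while Wt1, Gata4, Inha and Inhbb overlapped. The limma unadjusted p of Sox9, Amh and Clu was 0.0216, 0.00651 and 0.00402 (adjusted p 0.253 or above). Genotypes did not overlap in 12.7% of all tested genes, counting both directions. Sums of 3 myoid, 3 endothelial and 5 blood cell markers overlapped between the genotypes, the myoid sums running from 2531 to 3002 in het and from 2727 to 3394 in KO, and limma called none of these markers.

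No difference between the genotypes was detected for any of the 10 regulators at P0. In the limma fit over all genes (log2(normalized count + 1), Benjamini-Hochberg adjustment) 0 of 10 passed an adjusted p of 0.05 in either direction, beside 0.431% of all tested genes called higher and 0.0423% called lower in KO. None had an unadjusted p under 0.05, which 6.86% of all tested genes had, and edgeR and DESeq2 on recovered reads also called 0 of the 10. In none of the 10 did the KO libraries lie wholly above or below the het libraries, which was the case for 12.7% of all tested genes. The log2 fold changes ran from -0.59 (Sox3) to 0.61 (Neurog3) with a median of -0.030, against -0.016 over all tested genes, 4 being positive and 6 negative. These results do not show equal levels, and the 95% intervals below give the range of change that each gene's spread leaves.

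**Figure D1:**
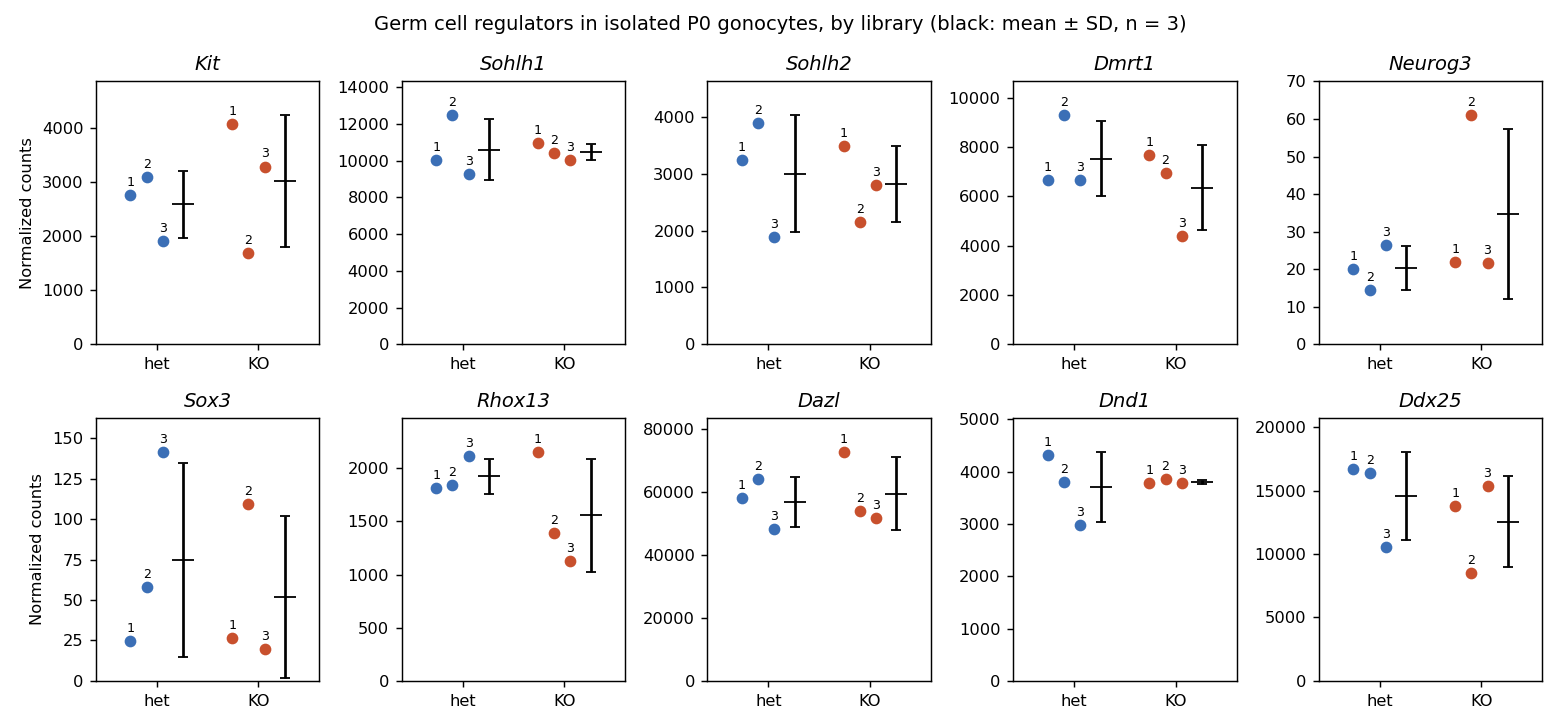
Normalized counts (linear axis from 0) of the 10 regulators, 1 point per library with its replicate number, het in blue and KO in orange, and in black the mean ± SD (n = 3). In every panel the points of both genotypes overlap, and het 3 and KO 2 are the lowest pair for Kit, Sohlh2 and Ddx25.

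**Figure D2:**
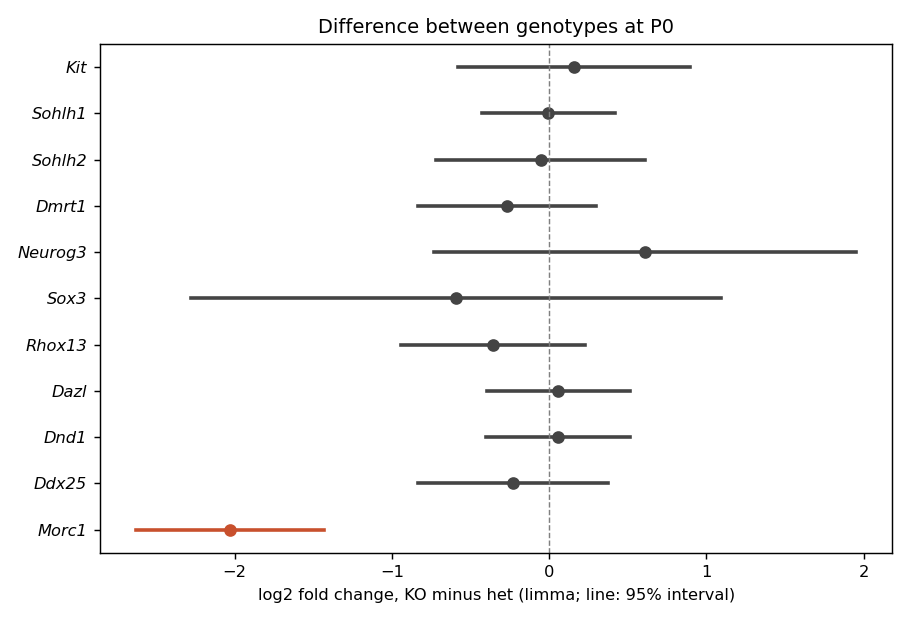
Log2 fold change of KO minus het from limma (point) with its 95% interval (line) for the 10 regulators and Morc1, the targeted gene. All 10 intervals of the regulators span 0, those of Sox3 and Neurog3 are the widest, and that of Morc1 lies wholly below 0.

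Kit (ENSMUSG00000005672, chromosome 5 from 75574916 to 75656722, plus strand, GRCm38, protein-coding like all 10) is the receptor of the differentiating state. It had 2759, 3098 and 1902 normalized counts in het and 4073, 1693.5 and 3283 in KO. The highest and the lowest value were both KO libraries. Means were 2586 ± 616 in het and 3016.5 ± 1212 in KO (SD, n = 3 each), KO thus at 117% of het, with a limma log2 fold change of 0.16 (SE 0.33, adjusted p 0.962) and a 95% interval from 0.67-fold to 1.86-fold. The sign of this estimate was set by single libraries, since it was -0.047 without het replicate 3, -0.10 without KO replicate 1 and 0.53 without KO replicate 2. Mast cells and Leydig cells also carry KIT. Het replicate 3 and KO replicate 2, the libraries with the most mast cell transcripts, had the least Kit, and the part of cell content in the Kit values was not tested.

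Of the SOHLH genes, Sohlh1 varied less among libraries than Sohlh2, with coefficients of variation of 10.4% and 26.8%. Sohlh1 (ENSMUSG00000059625, chromosome 2 from 25842995 to 25847248, minus strand) had 10029.6, 12470 and 9277 normalized counts in het and 10952, 10429.7 and 10034 in KO. All 6 libraries lay within a 1.34-fold range, with the KO libraries inside that of het. Its log2 fold change was -0.0058 (limma SE 0.19, adjusted p 0.997), with a 95% interval from 0.743-fold to 1.34-fold, and it was 0.12 without het replicate 2 and 0.025 without KO replicate 3. Sohlh2 (ENSMUSG00000027794, chromosome 3 from 55182028 to 55209957, plus strand), whose product pairs with SOHLH1, had 3241, 3893.5 and 1881 normalized counts in het and 3493, 2158.5 and 2812 in KO. Here het replicate 3 was lowest and KO replicate 2 next, while the other 4 libraries of both genotypes overlapped. The log2 fold change of Sohlh2 was -0.054 (limma SE 0.30, adjusted p 0.989), with a wider interval from 0.607-fold to 1.53-fold. Its sign turned without het replicate 1 (0.032), het replicate 2 (0.16) or KO replicate 2 (0.12).

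Dmrt1 and Rhox13 both had their lowest value in KO replicate 3. Dmrt1 (ENSMUSG00000024837, chromosome 19 from 25505618 to 25604329, plus strand), which Sertoli cells express as well as germ cells, had 6658, 9277 and 6638 normalized counts in het and 7688, 6941 and 4399 in KO. Apart from KO replicate 3, the KO values lay among those of het. Its KO mean was 84.3% of the het mean (limma log2 fold change -0.27, SE 0.25, adjusted p 0.908, 95% interval from 0.561-fold to 1.23-fold). Sertoli cell markers also had lower KO means, with negative log2 fold changes in 7 of 7 and a median of -0.69, and their part in the Dmrt1 values was not tested. Without KO replicate 3 the log2 fold change of Dmrt1 was -0.024. Rhox13 (ENSMUSG00000050197, chromosome X from 38121219 to 38129967, plus strand) had 1813, 1842 and 2112.5 normalized counts in het and 2151, 1389.7 and 1124 in KO. KO replicates 2 and 3 were below every het library, whereas KO replicate 1 was above every one. With a KO mean of 80.9% of het it had the lowest p of the 10 genes (limma log2 fold change -0.36, SE 0.26, unadjusted p 0.206, adjusted p 0.885), and its 95% interval reached from 0.52-fold to 1.17-fold. Its log2 fold change was -0.62 without KO replicate 1 (limma unadjusted p 0.0324, adjusted p 0.536) and -0.15 without KO replicate 3.

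The progenitor factors Neurog3 and Sox3 had the lowest levels of the 10 genes, and their estimates were the least precise. Neurog3 (ENSMUSG00000044312, chromosome 10 from 62133090 to 62134763, plus strand) had 20.02, 14.5 and 26.3 normalized counts in het and 21.8, 61.0 and 21.6 in KO, from 15 to 59 reads. Only KO replicate 2 was above the highest het library. The log2 fold change of 0.61 (limma SE 0.60, adjusted p 0.910; 95% interval from 0.603-fold to 3.87-fold) was 0.13 without KO replicate 2. An exon of Fam241b overlaps Neurog3 on the opposite strand, and 286 of the 1540 bp of the Neurog3 transcript matched Fam241b at 99.3% identity. Strand handling is not stated, so reads of the shared stretch cannot be told apart, and their part in the Neurog3 values is not known. Fam241b was likewise highest in KO replicate 2, with 1613 normalized counts against 528 to 1111 elsewhere. Sox3 (ENSMUSG00000045179, chromosome X from 60891366 to 60893430, minus strand) had 24.8, 58.0 and 141 normalized counts in het and 26.7, 109.5 and 19.6 in KO. Its values spanned 7.22-fold, the widest range of the 10 genes, and were highest in het replicate 3 and KO replicate 2, the libraries with the most mast cell transcripts. The same 2 libraries were highest in 14.6% of all tested genes. The part of cell content in the Sox3 values was not tested. The log2 fold change of Sox3 was -0.59 (limma SE 0.76, adjusted p 0.937; 95% interval from 0.206-fold to 2.13-fold) with all libraries and 0.030 without het replicate 3.

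Of the RNA regulators, Dazl and Dnd1 had smaller standard errors of the log2 fold change than Ddx25. Dazl (ENSMUSG00000010592, chromosome 17 from 50279395 to 50293636, minus strand) had 57865, 63889 and 48158 normalized counts in het and 72571, 53829 and 51560.1 in KO. KO replicate 1 was the highest library and het replicate 3 the lowest. The KO mean was 105% of the het mean (limma log2 fold change 0.059, SE 0.20, adjusted p 0.980, 95% interval from 0.761-fold to 1.43-fold). This estimate was -0.053 without het replicate 3 and -0.095 without KO replicate 1. Dnd1 (ENSMUSG00000044595, chromosome 18 from 36763671 to 36766214, minus strand) had 4318, 3807 and 2988 normalized counts in het and 3787, 3856 and 3780.1 in KO. The KO libraries lay closer together (SD 42.1) than the het libraries (SD 671), within whose range they fell. The log2 fold change of Dnd1 was 0.056 (limma SE 0.21, adjusted p 0.982, 95% interval from 0.757-fold to 1.43-fold), and -0.090 without het replicate 3. Dnd1 shares exonic sequence with Wdr55 on the opposite strand and 617 of the 2057 bp of its transcript matched the pseudogene Dnd1-ps at 92.2% identity, so part of its reads is uncertain.

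Ddx25 (ENSMUSG00000032101, chromosome 9 from 35536647 to 35558528, minus strand) had 16713, 16411 and 10565 normalized counts in het and 13789, 8520 and 15321 in KO. As for Kit and Sohlh2, het replicate 3 and KO replicate 2 were the lowest libraries. Means were 14563 ± 3466 in het and 12544 ± 3568 in KO (SD, n = 3 each), KO thus at 86.1% of het, with a limma log2 fold change of -0.23 (SE 0.27, adjusted p 0.930) and a 95% interval from 0.561-fold to 1.3-fold. Without KO replicate 2 the log2 fold change was 0.028, so that its sign rested on this library.

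Levels were put in order per kb of exon, to allow for the different lengths of the genes. The length was that of all annotated exons of a gene merged, 8911 bp for Kit and 6934 bp for Ddx25. Where the expressed transcript is shorter than this, the level is understated, so the order depends on the annotation. Dazl was highest with a mean over the libraries of 15178 normalized counts per kb, above 99.9% of tested genes, followed by Sohlh1 with 8171 per kb. Both stood clear of the genes below them in all 6 libraries. Dmrt1 (2673 per kb), Rhox13 (1985), Ddx25 (1955), Dnd1 (1557) and Sohlh2 (1232) formed a middle group in which each gene's range over the libraries overlapped that of the next. Rhox13 was above Ddx25 in 3 of 6 libraries, so these neighbours had no clear order. Kit followed with 314 per kb, below Sohlh2 in all 6 libraries by a factor of 3.92, at the 78.8th percentile of tested genes. Sox3 (30.7 per kb, 31.5th percentile) and Neurog3 (16.4 per kb, 18.7th percentile) came last, 10.2-fold or more below Kit. They were not separated from each other, since Sox3 was above Neurog3 in 4 of 6 libraries. The order thus ran from an RNA-binding protein and the SOHLH1 factor at the top to the receptor of the differentiating state and the progenitor factors at the bottom.

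**Figure D3:**
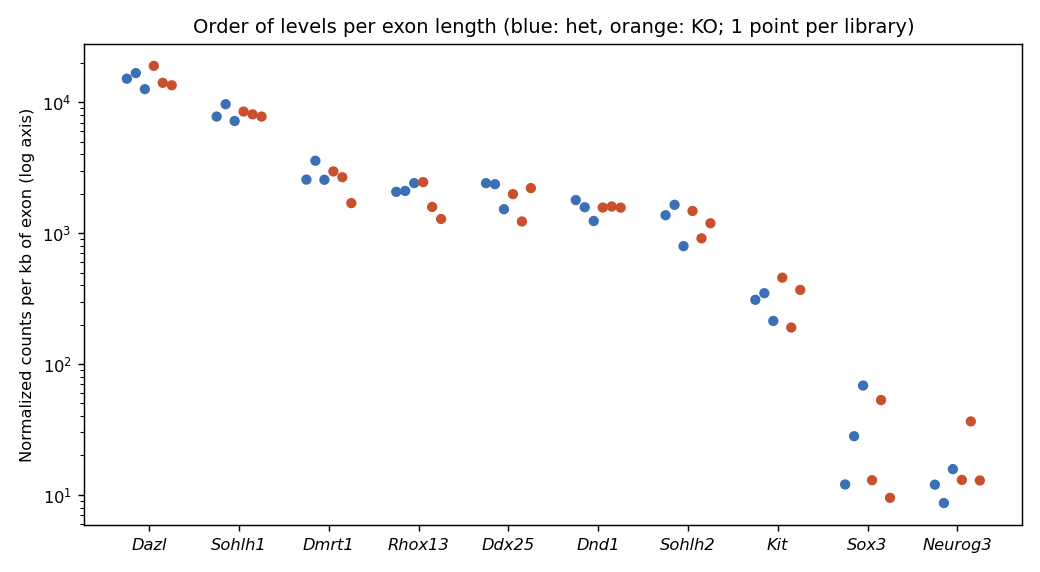
Normalized counts per kb of exon (log axis) of the 10 regulators in descending order of their mean, 1 point per library, het in blue and KO in orange. Levels run from 15178 per kb for Dazl to 16.4 per kb for Neurog3, and blue and orange points are mixed within each gene.

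Variation among libraries followed a pattern that the genotype does not describe. In Kit, Sohlh2 and Ddx25 het replicate 3 and KO replicate 2 were the lowest 2 libraries, as they also were in Ddx4 (17605 and 20304 normalized counts against 28528 to 31038 in the other 4). Both libraries were lowest together in 14.4% of all tested genes and highest together in 14.6%, the latter including Sox3 and Neurog3. This pair was picked after the values were seen and shares for other pairs are not given, so whether these shares are unusual is not known. Expressed per 100 counts of Ddx4, Kit had 9.67, 9.98 and 10.8 in het and 14.05, 8.34 and 11.4 in KO. On this scale the coefficient of variation over the 6 libraries was 18.1% in place of 31.8% for Kit, 9.18% in place of 26.8% for Sohlh2 and 12.9% in place of 24.6% for Ddx25. Kit, Sohlh2 and Ddx25 share their 2 lowest libraries with Ddx4, so this drop restates that pattern and adds no separate evidence. For the other 7 genes the coefficient of variation was larger than before. Among the other germ cell markers, Mael, Piwil2 and Tdrd1 were also lowest in het replicate 3 and KO replicate 2. Tex101 was not, with 10246 and 11234 normalized counts in these libraries against 8430 to 10231 elsewhere. What lowered Ddx4 in them was not tested. In bulk RNA, fewer germ cells and less RNA per germ cell cannot be told apart, so the ratio to Ddx4 describes the libraries only.

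On the Ddx4 scale the genotypes of all 10 genes still overlapped. The smallest p was that of Ddx25, with 58.6, 52.9 and 60.01 per 100 counts of Ddx4 in het and 47.6, 42.0 and 53.1 in KO. Only KO replicate 3 was above the lowest het library, by a small margin. In an exact permutation test (two-sided) p was 0.2 (adjusted over the 10 genes 0.857), where 3 libraries against 3 cannot go below 0.1.

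**Figure D4:**
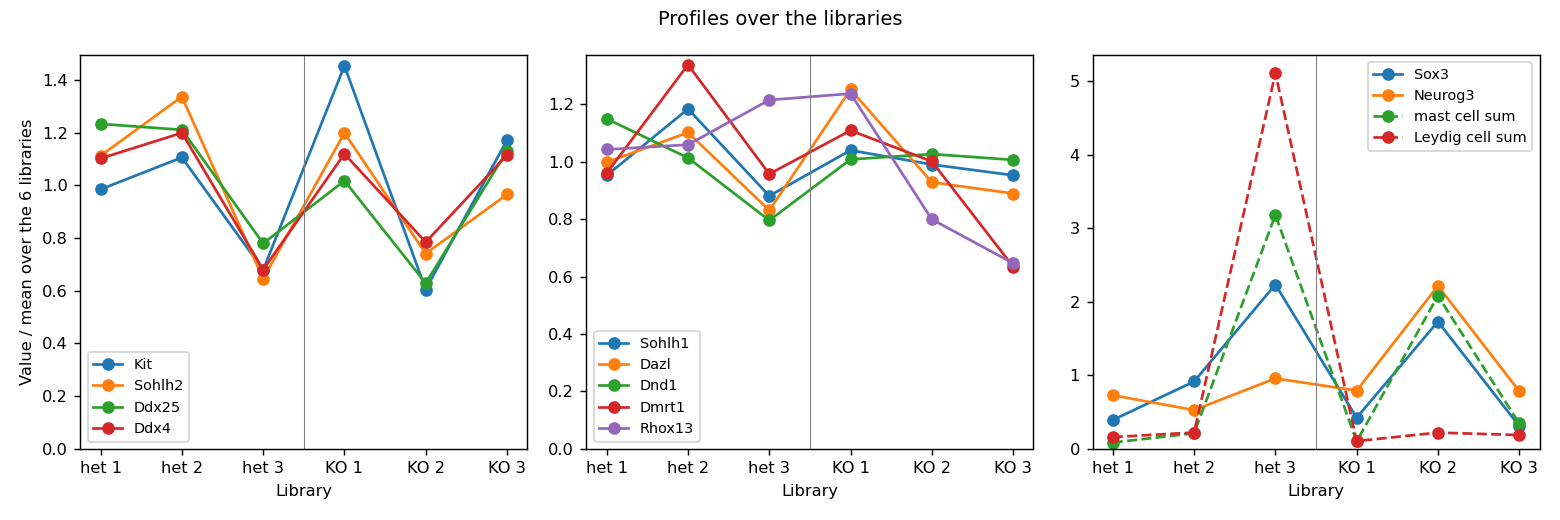
Each library's value divided by the gene's mean over the 6 libraries (linear axis from 0; lines only join the points of a gene). Kit, Sohlh2, Ddx25 and Ddx4 dip in het 3 and KO 2 (left), Sohlh1, Dazl, Dnd1, Dmrt1 and Rhox13 vary less or otherwise (middle), and Sox3 and the summed mast cell markers peak in het 3 and KO 2, the summed Leydig cell markers in het 3 and Neurog3 in KO 2 (right).

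Genes with the most similar course over the 6 libraries were found as the smallest root mean square difference of log2 values, each gene centred on its own mean. For Kit this was Cyb5d1 (0.083), for Sohlh1 4932438A13Rik (0.029) and for Sohlh2 Crybg3 (0.035). Dmrt1 was most like Hectd2 (0.068), Neurog3 most like Gm43162 (0.096), Sox3 most like 2700080J24Rik (0.25) and Rhox13 most like Tet2 (0.064). For the RNA regulators the nearest genes were Cand1 for Dazl (0.023), Ganc for Dnd1 (0.039) and Slc41a2 for Ddx25 (0.055). Among the regulators themselves Dazl and Sohlh1 were the closest pair (0.137), with 392 tested genes closer still to Dazl. With 6 libraries and 26005 genes such a match is a description and nothing more.

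Genes that act with these regulators were taken from 7 lists with 95 different genes, all of them tested. Limma called 0 of the 95 in either direction and edgeR 0, DESeq2 called 1 (Rhox5), and 6 had an unadjusted limma p under 0.05, a share near the 6.86% of all tested genes. Of 17 genes of KIT signalling 8 had positive and 9 negative log2 fold changes, with a median of -0.022. Kitl, the ligand, had a log2 fold change of -0.42 and Socs1, an inhibitor of cytokine signalling, one of -0.54, with limma adjusted p-values of 0.827 and 0.818 and overlapping libraries in both. The part of Sertoli cell content in the Kitl values was not tested. Socs1 was at -0.30 without KO replicate 1.

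Among 20 genes of spermatogonial self-renewal and differentiation 9 had positive and 11 negative log2 fold changes, with a median of -0.052. Several were highest in KO replicate 2, the library with the least Kit and the most Neurog3. Zbtb16 had 1812 normalized counts there against 159 to 563 elsewhere, Nanos3 488 against 56.6 to 94.7 and Id4 1003 against 180 to 499. Others were not, and Taf4b was lowest there (4453 against 4765 to 12712). The part of germ cell state in the values of KO replicate 2 was not tested. Lowest in p were Lin28a, an RNA-binding protein of undifferentiated germ cells, Upp1, a uridine phosphorylase, and Tex14, a protein of intercellular bridges. Upp1 had 1410.3, 1139 and 1276 normalized counts in het and 1915, 1492 and 2401 in KO, with no overlap between genotypes (limma log2 fold change 0.58, SE 0.24, adjusted p 0.672). Tex14 overlapped between genotypes (log2 fold change 0.54, limma adjusted p 0.799, and 0.26 without het replicate 3), and Lin28a did not (0.80, limma adjusted p 0.442). A list of 22 germ cell RNA regulators also held Sycp3, which is not an RNA regulator (log2 fold change 0.12). Of the 22, 17 had positive log2 fold changes, with a median of 0.11. Over all tested genes 12585 were positive and 13416 negative. Boll, a relative of Dazl, had 969, 997 and 670 normalized counts in het and 1400.1, 1174 and 1376 in KO. These were separate groups without a call (limma log2 fold change 0.60, SE 0.24, adjusted p 0.645), unlike those of Dazl itself. Pum2 and Rnf17, the next in p, overlapped, at 0.43 and 0.31. Pum2 was at 0.26 without KO replicate 2 and Rnf17 at 0.16 without KO replicate 3.

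The relatives of the transcription factors gave no called gene in limma either. Of 7 DMRT relatives Dmrtb1, Dmrtc1a and Dmrt2 were lowest in p, with log2 fold changes of 0.28, -0.25 and 0.38, a list median of 0.061 and limma adjusted p-values of 0.930 or above. Each changed sign without 1 library, Dmrtb1 without KO replicate 1 (-0.019), Dmrtc1a without KO replicate 2 (0.064) and Dmrt2 without KO replicate 3 (-0.032). Of 14 SOX relatives 10 had positive log2 fold changes, with a median of 0.18, led in p by Sox21 (1.06), Sox1 (0.99) and Sox6 (-0.51), all overlapping between genotypes. Without KO replicate 2 Sox21 was at 0.70 and Sox1 at 0.51, and without het replicate 3 Sox6 was at -0.25. Of 9 other genes of the Rhox cluster 6 had negative log2 fold changes, with a median of -0.20. Rhox5, a homeobox gene of Sertoli cells, had 1349, 1299 and 1347 normalized counts in het and 589, 897 and 738 in KO. The genotypes were apart, but the call depended on the tool (limma log2 fold change -0.87, SE 0.23, adjusted p 0.252; edgeR adjusted p 0.264; DESeq2 adjusted p 0.0418). The lower KO means of Sertoli markers are given above, and their part in the Rhox5 values was not tested. Rhox1 (-0.49) was also lower in every KO library without a call, and Rhox8 (-1.12) overlapped. Rhox8 was at -0.41 without het replicate 3 and at -0.51 without KO replicate 1.

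SOHLH1 and SOHLH2 are also known to act in oocytes. A list of 10 genes was made for the oocyte programme, though Kitl and Foxl2 in it are not genes of the oocyte itself. Of these 10, 8 had negative log2 fold changes, with a median of -0.41 and none called by limma. Figla, a helix-loop-helix factor of oocytes, had 451, 324.5 and 435 normalized counts in het and 273, 216 and 291 in KO, with no overlap (limma log2 fold change -0.63, SE 0.27, adjusted p 0.702). Zp2, a zona pellucida gene, varied more, from 385 to 665 in het and from 76.5 to 424 in KO, and its log2 fold change of -1.09 was -0.29 without KO replicate 2.

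The loci of the 10 genes were also examined in the table of transposable element (TE) copies. Of 83 listed copies within 10 kb of a gene body, 55 lay inside it, and the 37 at Dmrt1 were the most at 1 gene. Sox3 had none. The mean minimum was reached by 25 copies, and limma called 0 of them, with 0 at an unadjusted p under 0.05, beside 15.6% of 49781 tested copies called higher and 0.735% called lower in KO. The lowest p belonged to an intronic copy of 342 bp in Dmrt1, opposite to its strand (chromosome 19 from 25574670 to 25575011 as listed, read as GRCm38), with 21.1, 20.2 and 17.2 normalized counts in het and 7.63, 10.06 and 6.84 in KO (limma log2 fold change -1.17, adjusted p 0.272). Next was a copy of 120 bp in an exon of Dazl (log2 fold change -0.84, limma adjusted p 0.297), low in KO replicates 2 and 3 only. A copy of 119 bp in an exon of Kit, on its strand, had 205, 192 and 89.1 normalized counts in het and 283, 98.3 and 227 in KO. Its 2 lowest libraries were those of Kit itself. Reads of the Kit message can be counted in this copy too, so it is not a separate measure.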

How the data were processed

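RNA of P0 gonocytes was sequenced after low-input cDNA synthesis (SMART-seq v4) and TruSeq library preparation, per the labels' protocols. The submitters' processing notes list HISAT2 2.1.0, featureCounts 1.5.2 and DESeq2 1.26.0 and the builds mm10 and GRCm38. Strand handling and the treatment of reads matching several places are not given in the sources used here. The deposited values of both tables are a signal, read counts divided by 1 factor per library by the authors (DESeq2 size factors for genes, per the file name). In each column 100% of values were whole multiples of 1 step (tolerance 0.01), which gave back the reads. The step of KO replicate 1 in the gene table is too near 1 for an automatic check, and its reads, recovered in the same way, entered only the count tests and totals. A fit in limma 3.58.1 (eBayes with trend, two-sided, het against KO, no covariates) used log2(value + 1) for features with a mean of at least 10, with Benjamini-Hochberg adjustment over all features. On this scale the change of low genes is understated. The scripts were tested on simulated data. Count tests (edgeR 4.0.16, DESeq2 1.42.0) on recovered reads, pseudocounts, filters, scaling and left-out libraries were alternatives. Symbols, positions and exon lengths came from GENCODE M21 (35560 of 35666 IDs matched), promoters from RefSeq (GRCm38.p6) and similar transcripts from blastn 2.17.0 (at least 90% identity over 10% of the transcript). The members and lists were chosen with earlier results of these data known. Named are the 10 genes, Morc1, the called genes of each list or the 3 lowest in p (1 of them is not reported here), the gene most alike each of the 10 and the 2 TE copies lowest in p. The TE copy in Kit, Wdr55, Fam241b and the markers were named after their values were seen. P-values measure the spread between these libraries, which may be technical, since nothing says that they came from separate animals.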

Additional observations from a re-analysis of the deposited data

How the results depend on the processing

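None of the 10 regulators passed an adjusted p of 0.05 in any of 169 values under the alternatives run for them, the lowest adjusted p being 0.536 (limma, Rhox13 without KO replicate 1), and 0 TE copies near them were called under any limma alternative. Dmrt1, Neurog3 and Rhox13 kept their sign in all of these, while 13 values of the other 7 genes changed sign. When each library was left out in turn, the log2 fold change of Kit ran from -0.10 to 0.53, that of Sohlh1 from -0.096 to 0.12, Sohlh2 from -0.36 to 0.16, Dazl from -0.095 to 0.15, Dnd1 from -0.090 to 0.17, Ddx25 from -0.45 to 0.028 and Sox3 from -1.33 to 0.030, while Dmrt1 stayed between -0.43 and -0.024, Neurog3 between 0.13 and 0.86 and Rhox13 between -0.62 and -0.15. Without het replicate 3 and KO replicate 2 together, an alternative chosen after seeing the data, Dnd1 was at -0.10, none of the 10 was called, and 66 of all genes were higher in KO.

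Over all genes, the 112 higher and 11 lower calls became 70 and 5 with a pseudocount of 0.1, 400 and 65 with DESeq2, and ran from 15 to 107 and from 1 to 7 when a library was left out. With a pseudocount of 10 there were 176 higher genes and in limma without trend 3 lower genes. Of the 95 related genes, DESeq2 called 1 (Rhox5) and the other alternatives 0. With the replicate block 64 genes were higher and 5 lower and none of the 10 was called. The titles do not say that the replicate numbers pair animals, so the numbers were not taken as pairs. Correlations across genes of same-numbered libraries were 0.138, -0.163 and -0.044, beside 0.206 for het 3 and KO 2. With 3 libraries per group these values cannot decide whether libraries were paired. Morc1 lost its call in limma without trend (log2 fold change -2.03, adjusted p 0.0891) and without het 1, KO 1 or KO 3 (-2.17 to -1.90, adjusted p 0.0511 to 0.101). Read counts were lowest for Neurog3 (15 to 59) and Sox3 (20 to 145) among the 10.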
